A study of Mus musculus with 64 samples.

Results

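The transcriptome of the nucleus accumbens (NAc) was compared between mice given mianserin and mice given saline, in 12 of the 64 libraries of the series. The libraries were chosen by their labels: NAc as the tissue and mianserin (4 libraries) or saline (8 libraries) as the treatment. All animals were adult male C57BL/6N mice aged 8 to 10 weeks, decapitated 2 h after a single intraperitoneal injection, of mianserin at 20 mg/kg or of saline, the vehicle of the drug. By title, 4 saline libraries belong to set I and the other 4 to set II, and mianserin was also compared with saline set II alone. The labels number the libraries of a group as replicates without saying which animal each came from, so p-values measure the spread between these libraries. RNA came from dissected tissue, where fewer cells of a type and less RNA per cell cannot be told apart.

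Mianserin is a tetracyclic antidepressant that blocks serotonin receptors of the 5-HT2 family, alpha-adrenergic receptors and the histamine H1 receptor. The NAc is the ventral part of the striatum, built mainly of GABAergic medium spiny neurons that carry dopamine receptors and integrate input on reward and motivation. Within hours of an acute drug dose, brain tissue can show transcriptional programs known from other settings: immediate early genes that follow neuronal activity, genes with response elements for the glucocorticoid receptor, and stress and growth factor genes in glia and vessels. Values below are FPKM, the read coverage of a transcript per kilobase of its length, scaled to the mapped reads of the library, which the authors estimated for each annotated transcript. A gene level is the sum of the FPKM of its transcripts.

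The saline sets differed from each other before any drug was considered. Saline set I libraries listed 85397 to 87827 transcripts above 0, saline set II libraries 109231 to 110063 and mianserin libraries 108989 to 110000. Between the saline sets, 3890 of 30841 genes (12.6%) passed the threshold used for the drug, and the first principal component, with 39.7% of the variance, separated set I from the other 8 libraries. Sequencing depth, estimated from coverage, was 2.03 to 3.26 gigabases of aligned reads. The markers of medium spiny neurons, 14 genes that include Drd1, Drd2 and Ppp1r1b, summed to 734 to 947 FPKM after mianserin, 771 to 1020 in saline set II and 835 to 971 in set I. Markers of striatal neurons were thus present in every library, which does not tell the NAc from other parts of the striatum. None of the 10 lists of cell type markers held a gene called by limma in the comparisons below, and at an unadjusted p below 0.05 against saline set II no list had more than 2 genes higher or 3 lower. The sum of the 5 red blood cell genes was 28.4 to 40.9 FPKM after mianserin, 40.2 to 71.1 in saline set II and 74.1 to 102 in set I. It was lower after mianserin than in the 8 saline libraries (exact permutation test, two-sided, p = 0.0121), with a p of 0.0571 against set II. Marker sums of oligodendrocytes, their precursors, cortical projection neurons and striatal interneurons after mianserin overlapped set II but lay below every set I library. Those of oligodendrocytes were 605 to 639 FPKM after mianserin, 583 to 646 in set II and 698 to 799 in set I. The part of blood, or of these differences between the saline sets, in the results that follow was not tested.

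Against the 8 saline libraries, 49 of the 30841 genes tested (0.159%) passed an adjusted p of 0.05 (limma on log2(FPKM + 1), Benjamini-Hochberg), of which 35 (0.113%) rose and 14 (0.0454%) fell. Rises ran from 0.38 to 1.68 on the log2(FPKM + 1) scale and falls from -0.35 to -1.13, a scale that understates the change of genes with low FPKM. Against saline set II alone, 8 genes passed (0.0259%), 5 higher (0.0162%) and 3 lower (0.00973%), and 2414 genes had an unadjusted p below 0.05. The comparison with saline set II had 4 libraries a group. When all 32 NAc libraries set the spread, 99 genes passed in that comparison (0.321%), 64 higher (0.208%) and 35 lower (0.113%). The 8 saline libraries include set II, and the mianserin libraries are the same in both comparisons.

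A total of 6 genes passed both comparisons, in the same direction. Sgk1 encodes a kinase of ion transport and cell survival and Txnip an inhibitor of glucose uptake and thioredoxin. Nfkbia encodes the inhibitor that holds NF-kappaB in the cytoplasm and Cyr61 a secreted matrix protein of early growth responses. Gm37728 is a transcribed region whose annotation awaits experimental testing, and Gm26945 is a noncoding gene. The first 5 rose, and Gm26945 fell. The 2 genes called against saline set II alone fell. They were Gm42888, which lies inside Kctd8 and has the annotation class of Gm37728, and Gm24900, a small nucleolar RNA. Gm42888 was 1.07 ± 0.0591 against 2.15 ± 0.175 FPKM in set II (SD, n = 4 each, difference -0.61, limma, adjusted p = 0.0269). Gm24900 was listed at 0 FPKM in all 4 libraries of saline set I. For each of the 6 shared genes, the 4 mianserin libraries lay outside the range of all 8 saline libraries, which was also a condition for naming a gene. The same held for all 49 genes and all 59 transcripts called against the 8 saline libraries. A lack of overlap is thus not particular to any called gene below. All 4 mianserin libraries lay above the 8 saline libraries in 347 genes (1.13%) and below them in 196 (0.636%).

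Sgk1 (chromosome 10, 21882184 to 21999903, GRCm38) stood at 65.2, 70.7, 54.9 and 60.8 FPKM in the 4 mianserin libraries. In saline set II it was 18.6, 18.3, 21.2 and 20.3 FPKM, and over the 8 saline libraries the lowest, median and highest values were 16.1, 18.4 and 21.6. Every mianserin library lay far above the highest saline library. The mean was 62.9 ± 6.73 FPKM (SD, n = 4) against 19.0 ± 1.91 (SD, n = 8), a 3.31-fold difference, or 1.68 on the log2(FPKM + 1) scale (SE 0.09, limma, adjusted p = 1.95e-06). From saline set II it differed by 1.63 (SE 0.09, adjusted p = 0.000706).

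Txnip (chromosome 3, 96557957 to 96561883) encodes thioredoxin-interacting protein, an arrestin-like protein whose transcription follows glucose supply. It read 13.1, 15.2, 13.1 and 14.4 FPKM after mianserin. Saline set II gave 4.15, 2.72, 4.64 and 4.07 FPKM, with 2.72, 4.10 and 4.64 as the lowest, median and highest of the 8 saline libraries. The mianserin libraries formed a narrow group well above every saline library. The mean was 13.9 ± 1.02 FPKM (SD, n = 4) against 3.79 ± 0.685 (SD, n = 8), which is 3.68-fold higher. The log2 difference was 1.65 (SE 0.11, limma, adjusted p = 1.71e-05) against 8 saline libraries and 1.62 (SE 0.13, adjusted p = 0.00608) against saline set II.

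Nfkbia (chromosome 12, 55489410 to 55492647) measured 4.30, 4.62, 4.91 and 5.70 FPKM after mianserin. In saline set II it was 1.93, 2.29, 1.94 and 2.26 FPKM, and the 8 saline libraries ran from 1.93 through a median of 2.28 to 3.27. The highest saline library belonged to set I and still lay under the lowest mianserin library. The mean of 4.88 ± 0.600 FPKM (SD, n = 4) was 2.10-fold that of saline, 2.32 ± 0.426 (SD, n = 8), with log2 differences of 0.83 (SE 0.10, limma, adjusted p = 0.00443) and, against saline set II, 0.92 (SE 0.09, adjusted p = 0.0235).

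Cyr61 (chromosome 3, 145646976 to 145649981), also called Ccn1, read 1.38, 1.72, 1.71 and 1.25 FPKM after mianserin. Saline set II gave 0.406, 0.332, 0.302 and 0.508 FPKM, and the lowest, median and highest of the 8 saline libraries were 0.302, 0.476 and 0.799. Its levels were low in every library, and the groups did not overlap. The mean was 1.51 ± 0.236 FPKM (SD, n = 4) against 0.490 ± 0.160 (SD, n = 8), 3.09-fold higher. The log2 difference was 0.76 (SE 0.09, limma, adjusted p = 0.00443) against 8 saline libraries and 0.86 (SE 0.09, adjusted p = 0.0269) against saline set II.

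Fos, a subunit of the AP-1 transcription factor and the usual marker of recent neuronal activity, was called against the 8 saline libraries only. Its level was 6.55, 6.74, 5.52 and 4.83 FPKM after mianserin and 3.40, 1.59, 2.73 and 2.02 FPKM in saline set II, with 1.59, 2.45 and 3.40 as the lowest, median and highest saline values. No saline library reached the lowest mianserin library. The difference was 1.03 (SE 0.13, limma, adjusted p = 0.00712), and against saline set II 1.03 (SE 0.17, adjusted p = 0.121).

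**Figure D1:**
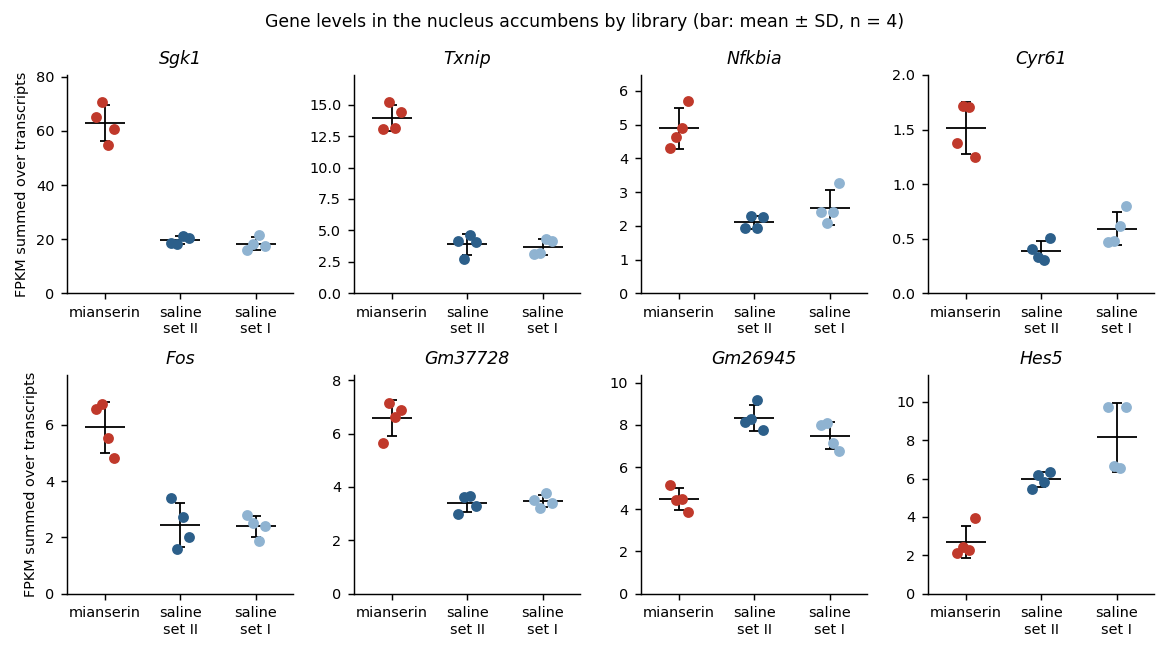
FPKM summed over the transcripts of 8 genes (vertical axes, each from 0) in the NAc libraries of mianserin, saline set II and saline set I (points, 4 per group), with the mean ± SD as black bars. In every panel the 4 mianserin points lie outside the range of the 8 saline points, above it for Sgk1, Txnip, Nfkbia, Cyr61, Fos and Gm37728 and below it for Gm26945 and Hes5.

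The sequences just upstream of the transcription starts of the 5 protein-coding genes above are shown because these genes moved together. They are the 250 bases before the RefSeq start on GRCm38.p6, written 5′ to 3′ on the strand of the gene, with matches to 6 searched motifs in capitals: the glucocorticoid response element GNACANNNTGTNC, the cAMP response element TGACGTCA, the E-box CACGTG, the TATA box TATAAA, the CArG box and the kappaB site. Both strands were searched. Sgk1 has 2 entries, the start of its short coding transcript and the distal start of its longest one.
Sgk1 short (chr10:21994416-21994665, + strand): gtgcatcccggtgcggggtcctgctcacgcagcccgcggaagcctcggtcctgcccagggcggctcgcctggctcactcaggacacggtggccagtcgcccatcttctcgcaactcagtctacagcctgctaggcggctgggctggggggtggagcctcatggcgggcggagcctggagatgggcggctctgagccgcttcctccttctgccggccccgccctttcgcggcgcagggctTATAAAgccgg
Sgk1 distal (chr10:21881934-21882183, + strand): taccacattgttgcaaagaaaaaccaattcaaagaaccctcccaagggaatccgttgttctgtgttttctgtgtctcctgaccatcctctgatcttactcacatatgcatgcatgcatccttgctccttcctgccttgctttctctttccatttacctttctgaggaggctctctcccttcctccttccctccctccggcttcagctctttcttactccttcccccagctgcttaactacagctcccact
Txnip (chr3:96557707-96557956, + strand): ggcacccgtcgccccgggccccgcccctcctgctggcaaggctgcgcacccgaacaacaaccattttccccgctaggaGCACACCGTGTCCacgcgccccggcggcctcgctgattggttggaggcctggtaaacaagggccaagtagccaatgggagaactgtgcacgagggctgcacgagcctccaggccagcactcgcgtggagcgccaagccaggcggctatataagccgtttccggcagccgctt
Nfkbia (chr12:55492648-55492897, - strand): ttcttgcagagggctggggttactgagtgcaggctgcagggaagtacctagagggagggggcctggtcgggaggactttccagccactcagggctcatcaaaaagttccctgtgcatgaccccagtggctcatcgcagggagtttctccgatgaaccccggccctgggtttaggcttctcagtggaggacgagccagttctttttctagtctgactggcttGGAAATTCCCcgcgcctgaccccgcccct
Cyr61 (chr3:145649986-145650235, - strand): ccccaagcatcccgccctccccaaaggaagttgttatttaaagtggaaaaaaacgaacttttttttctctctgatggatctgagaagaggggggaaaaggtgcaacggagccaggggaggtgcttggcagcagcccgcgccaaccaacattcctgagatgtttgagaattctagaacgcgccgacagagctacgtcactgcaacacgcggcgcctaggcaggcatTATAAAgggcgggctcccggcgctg
Fos (chr12:85473640-85473889, + strand): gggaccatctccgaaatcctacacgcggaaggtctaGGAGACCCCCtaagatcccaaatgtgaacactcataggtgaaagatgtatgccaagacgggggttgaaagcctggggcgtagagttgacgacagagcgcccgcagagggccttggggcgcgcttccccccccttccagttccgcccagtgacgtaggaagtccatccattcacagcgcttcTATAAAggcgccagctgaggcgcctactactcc
The capitals mark a TATA box that begins 11 bases before the start of the short Sgk1 transcript, 25 before that of Cyr61 and 33 before that of Fos. They mark a glucocorticoid response element 172 bases before the start of Txnip, and kappaB sites 29 bases before the start of Nfkbia and 214 before that of Fos. The window before the distal Sgk1 start held none of the 6 motifs. Among 32851 promoters of the same length, 0.387% held the glucocorticoid response element, 1.55% the cAMP response element, 6.02% the E-box, 12.4% the TATA box, 1.47% the CArG box and 3.90% the kappaB site. Among 28 promoters of 15 risen genes with a RefSeq entry, 2, 0, 2, 5, 0 and 2 held these motifs in that order, and among 7 promoters of 7 fallen genes the CArG box occurred in 2 and the TATA box in 1. A gene can enter with several promoters, so these are counts of promoters and not of genes. A match is a string of letters and does not show that a factor binds.

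Genes known to respond to glucocorticoids, the adrenal steroids that act through the nuclear receptor Nr3c1, formed the list with the largest median of the 17 compared. Its members, like those of the other lists, were chosen with earlier results of these data known. The rank and the counts are therefore a description and not a test. Of the 22 members of this list, 4 rose and 0 fell against the 8 saline libraries. The median difference was 0.30, against 0.03 over all genes tested. With saline set II as control the median was 0.33 beside 0.01 for all genes, and 13 members were higher and 1 lower at an unadjusted p below 0.05, where all genes gave 1148 higher and 1266 lower. The 4 that rose were Sgk1 and Nfkbia, described above, Cdkn1a, an inhibitor of cyclin-dependent kinases, and Fkbp5, a co-chaperone that lowers the hormone affinity of the glucocorticoid receptor.

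Fkbp5 was 8.08, 8.35, 6.82 and 7.44 FPKM after mianserin and 5.70, 5.15, 5.11 and 5.59 FPKM in saline set II, with a range of 4.78 to 5.70 over the 8 saline libraries. All mianserin libraries were higher, by less than 2-fold, with a mean of 7.67 ± 0.687 FPKM (SD, n = 4) against 5.25 ± 0.327 (SD, n = 8) and a log2 difference of 0.47 (SE 0.07, limma, adjusted p = 0.0148). Cdkn1a was 4.07, 4.35, 3.62 and 3.82 FPKM after mianserin against 2.01 to 2.92 in the 8 saline libraries, a log2 difference of 0.51 (SE 0.08, limma, adjusted p = 0.0202). Neither passed against saline set II, where adjusted p was 0.153 for Fkbp5 and 0.0931 for Cdkn1a. Other members with low p were Ddit4, an inhibitor of mTOR signalling, at 6.78 ± 1.17 FPKM (SD, n = 4) against 3.80 ± 0.772 (SD, n = 8; adjusted p = 0.0602), and Cebpd, a transcription factor of acute responses, at 0.876 ± 0.196 against 0.245 ± 0.178 FPKM (adjusted p = 0.0572). Both had their 4 mianserin libraries above all saline libraries without passing the threshold. Tsc22d3, a leucine zipper protein that mediates anti-inflammatory actions of glucocorticoids, read 14.5 ± 1.97 against 10.6 ± 1.31 FPKM (adjusted p = 0.152). The receptor-regulated transcription factor Zbtb16 differed by 0.03 (adjusted p = 0.932), so members of the list did not move alike. Nfkbia, Dusp1, Per1 and Pdk4 also belong to other lists below.

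Immediate early genes are switched on by neuronal activity without new protein synthesis. Of 23 members, 1 (Fos) rose and 0 fell, with a median difference of 0.15 against 8 saline libraries and 0.13 against saline set II. At an unadjusted p below 0.05 against saline set II, 9 were higher and 2 lower. Of all 30841 genes tested, 1148 were higher and 1266 lower at that threshold. Junb, a partner of Fos in AP-1, was 5.42 ± 0.607 FPKM after mianserin and 3.64 ± 0.605 in saline set II (SD, n = 4 each), but 4.92 ± 1.47 over the 8 saline libraries (adjusted p = 0.689). The orphan nuclear receptor Nr4a1 differed by 0.44 from saline set II (SE 0.10, limma, adjusted p = 0.298). Npas4, a transcription factor induced by calcium entry into neurons, had the opposite sign, -0.38 (SE 0.10, adjusted p = 0.394). Egr1, another common activity marker, differed by 0.10 with a 95% interval of -0.09 to 0.28, and Arc, whose product acts at synapses, by -0.20 (-0.46 to 0.06). Thus Fos was the one called member, and the mean levels of Npas4 and Arc lay below those of saline set II. The MAP kinase feedback list, 15 phosphatases, Sprouty proteins and ETS factors that are induced by and dampen the pathway, had 0 called members against 8 saline libraries and 3 higher at an unadjusted p below 0.05 against saline set II. These were the phosphatases Dusp6, Dusp4 and Dusp1, with differences of 0.41, 0.25 and 0.45.

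A mixed list of early response genes, only some of them secreted or vascular, had as many calls as the glucocorticoid list: 4 of 16 rose and 0 fell. Its median was 0.15 against 8 saline libraries and 0.22 against saline set II. At an unadjusted p below 0.05 against set II, 8 were higher and 0 lower, where all 30841 genes gave 1148 higher and 1266 lower. The 4 that rose were Cyr61, Rasd1, a small G protein known from dexamethasone induction, Apold1, an endothelial early response gene, and Tiparp, an ADP-ribosyltransferase. Rasd1 read 2.37, 2.70, 2.02 and 2.56 FPKM after mianserin and 0.852, 0.580, 0.709 and 1.57 in saline set II, a difference of 0.87 from the 8 saline libraries (SE 0.13, limma, adjusted p = 0.0201). The highest library of set II, at 1.57, lay below the lowest mianserin library. Apold1 was 0.983, 0.987, 1.26 and 0.963 FPKM against a saline range of 0.306 to 0.542 (difference 0.56, SE 0.07, adjusted p = 0.00482), and Tiparp was 4.83 ± 0.426 against 3.02 ± 0.395 FPKM (adjusted p = 0.0247). The endothelial and mural cell markers, 9 genes that include Cldn5 and Pecam1, had 0 calls and summed to 30.7 to 33.4 FPKM after mianserin, 29.5 to 33.2 in saline set II and 28.1 to 35.2 in set I. The ranges of that sum overlapped.

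Outside the lists, Arrdc3, an arrestin-domain protein that moves adrenergic receptors toward degradation, was 12, 16.9, 12.4 and 14.7 FPKM after mianserin and 8.88, 8.62, 7.98 and 6.17 FPKM in saline set II (difference from 8 saline libraries 0.72, SE 0.11, limma, adjusted p = 0.0182). Csrnp1, a nuclear protein with transcriptional activity, was 2.02 ± 0.195 against 1.04 ± 0.173 FPKM (adjusted p = 0.0147). Both were higher in every mianserin library than in any saline library, as was every risen gene among the 49. Among the insulin and FOXO-responsive genes, Txnip alone of 14 was called. Its list mates Klf15 and Trib1 differed from saline set II by 0.52 and 0.36 and the cell cycle gene Ccng2 by -0.32, with adjusted p of 0.422, 0.340 and 0.413. In the NF-kappaB list, Nfkbia alone of 11 was called, and Tnfaip3, another feedback inhibitor of the pathway, differed by -0.08 (95% interval -0.32 to 0.16).

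**Figure D2:**
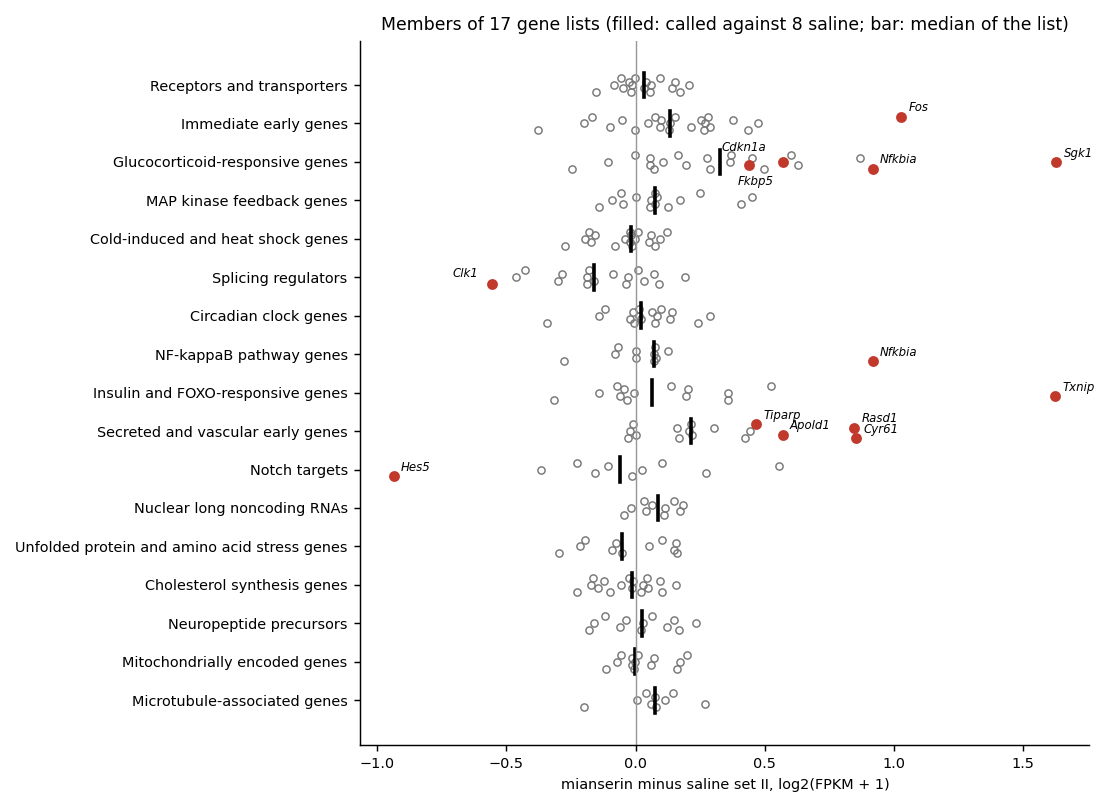
Difference between mianserin and saline set II on the log2(FPKM + 1) scale (horizontal axis) for the tested members of 17 gene lists (rows). Filled red points are genes called against the 8 saline libraries, open points are the others and the black bar is the median of the list. The glucocorticoid-responsive list has the bar farthest to the right, at 0.33, and the splicing regulators have the bar farthest to the left, at -0.16.

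The splicing regulators, 17 genes of SR proteins, the CLK kinases that phosphorylate them and the TRA2 proteins, had a median difference of -0.16 against both the 8 saline libraries and saline set II. In both comparisons 12 members had a difference below 0 and 5 above 0. Of all 30841 genes tested, 12841 were below 0 against the 8 saline libraries and 14741 against saline set II. A single member, Clk1, fell against the 8 saline libraries and 0 rose. At an unadjusted p below 0.05 against saline set II, 6 were lower and 1 higher, where all genes gave 1266 lower and 1148 higher. Clk1 read 17.2, 16.1, 19.2 and 16.5 FPKM after mianserin and 25.4, 25.0, 27.2 and 25.4 FPKM in saline set II, and the 8 saline libraries ran from 25.0 through a median of 26.0 to 28.8. The groups were separated by more than the whole range of either, with a difference of -0.59 (SE 0.06, limma, adjusted p = 0.00277). Against saline set II it was -0.55 (adjusted p = 0.0693). Tra2a, Clk2 and Srsf6 also had all mianserin libraries below all saline libraries, with differences of -0.38, -0.53 and -0.28 and adjusted p of 0.0820, 0.0602 and 0.0803.

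At the level of transcripts, 59 of 73624 (0.0801%) were called against 8 saline libraries, 33 higher (0.0448%) and 26 lower (0.0353%). With each library rescaled to the same 75th percentile, the split was 41 higher and 20 lower. Of the 26 fallen transcripts, 14 (53.8%) were annotated as retained introns, transcripts that keep an intron and usually code for no protein, while this type made up 18.7% of the transcripts tested and 21.2% of the 33 that rose. Several belong to genes of splicing factors and other RNA-binding proteins. The retained-intron form of Srsf5 (ENSMUST00000153056) was 6.46, 5.40, 6.19 and 5.38 FPKM after mianserin and 14.9, 13.0, 14.5 and 16.4 FPKM in saline set II, and was lower by -1.15 against the 8 saline libraries (SE 0.08, limma, adjusted p = 0.000181) and by -1.19 against set II (adjusted p = 0.0359). That of Srsf6 (ENSMUST00000193611) was 1.76, 2.14, 1.63 and 2.45 FPKM against 3.58 to 5.54 in saline (adjusted p = 0.00511). No library of one group reached the other in either transcript, a pattern that 438 transcripts (0.595%) showed in this direction and 596 (0.81%) in the opposite one. That of Clk1 (ENSMUST00000129577) was 3.30 ± 0.511 against 5.75 ± 0.507 FPKM (adjusted p = 0.0168). Among coding transcripts of Srsf5, ENSMUST00000110356 averaged 9.16 FPKM after mianserin, 5.81 in saline set II and 8.45 in set I. Its difference from set II was 0.58 (limma, adjusted p = 0.335). On average ENSMUST00000094693, ENSMUST00000110351 and ENSMUST00000110352 were also higher than in set II and ENSMUST00000110354 was lower. None of these coding transcripts was called. A noncoding transcript of Sfpq (ENSMUST00000140682), a paraspeckle protein, was 3.54, 3.51, 4.00 and 3.69 FPKM after mianserin and 7.59 to 10.4 FPKM in saline (difference -1.03, SE 0.08, adjusted p = 0.000389). The same direction held outside RNA-binding proteins in Gpi1, a glycolytic enzyme, where retained-intron transcripts ENSMUST00000135243 and ENSMUST00000206603 were 3.99 ± 0.294 and 8.42 ± 0.408 FPKM after mianserin against 7.68 ± 0.811 and 14.7 ± 1.48 FPKM after saline (adjusted p = 0.00489 and 0.00640). Levels of transcripts of one gene come from shared reads, so an error in one can pass to another.

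In all, 3 transcripts (0.00407%) were called against saline set II, 2 higher (0.00272%) and 1 lower (0.00136%): the short Sgk1 transcript, the Srsf5 form above and Nrg2 ENSMUST00000115713. In the fit with all 32 NAc libraries, 131 transcripts were called against set II.

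The rise of Sgk1 was not spread over all its transcripts. The division by start was chosen after the values were seen and is a description. The 5 transcripts that start between 21994666 and 21996591 summed to 54.6 ± 6.90 FPKM after mianserin (SD, n = 4; range 45.6 to 62.0) and 10.9 ± 1.46 after saline (SD, n = 8; range 8.90 to 13.2). The 8 transcripts that start upstream, between 21882184 and 21993890, summed to 8.33 ± 0.832 FPKM (range 7.34 to 9.23) and 8.13 ± 1.22 FPKM (range 5.89 to 9.96). The first sum differed by 2.23 on the log2 scale and the second by 0.04. The short coding transcript ENSMUST00000020145, whose upstream sequence is printed first above, read 16.3, 22.1, 14.2 and 20.2 FPKM after mianserin and 1.58, 2.43, 2.18 and 2.96 FPKM in saline set II (difference from set II 2.54, SE 0.17, limma, adjusted p = 0.0133). The distal ENSMUST00000120509, printed second, read 5.43, 4.73, 6.68 and 6.01 FPKM against 5.22, 5.79, 5.03 and 4.78, with a difference of 0.11 and a 95% interval of -0.14 to 0.35. A retained-intron transcript at the proximal start, ENSMUST00000141218, was 19.5 ± 4.91 against 4.16 ± 1.29 FPKM (adjusted p = 0.00162 against 8 saline libraries, 0.0997 against set II).

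Dclk1, a microtubule-binding kinase whose locus the study was designed around, summed to 107 ± 5.53 FPKM after mianserin (SD, n = 4) and 94.0 ± 8.74 after saline (SD, n = 8), a difference of 0.19 (adjusted p = 0.333). Of its 15 transcripts, 1 was called, the retained-intron ENSMUST00000198757, at 8.98, 8.83, 11.6 and 10.2 FPKM after mianserin and 4.93, 5.68, 5.55 and 5.67 FPKM in saline set II. It was 0.80 higher than the 8 saline libraries (SE 0.09, limma, adjusted p = 0.00640) and 0.75 higher than set II (adjusted p = 0.150). The mianserin and saline values did not overlap. The coding transcript ENSMUST00000199585, which encodes the short CARP protein without a kinase domain, was 13.5, 13.2, 15.0 and 9.24 FPKM after mianserin, 4.72, 4.75, 4.66 and 4.64 FPKM in set II and 1.00 to 4.07 FPKM in set I. Its difference from the 8 saline libraries was 1.61 (SE 0.27, adjusted p = 0.0604) and from set II 1.25 (SE 0.14, adjusted p = 0.0697). Another transcript with no overlap of the groups, ENSMUST00000070418, was 21.4, 19.6, 23.3 and 19.2 FPKM after mianserin and at most 19.0 in saline (difference 0.31, adjusted p = 0.383). In ENSMUST00000199585 the saline sets were apart from each other by more than the spread within set II.

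**Figure D3:**
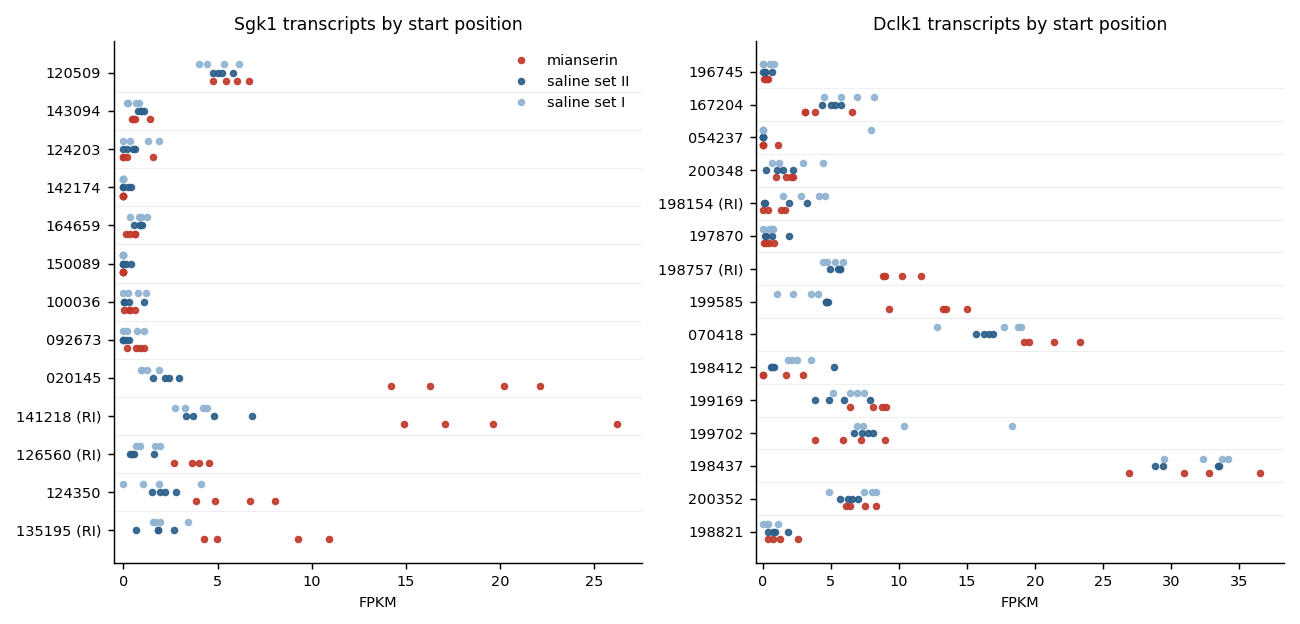
FPKM (horizontal axis) of the transcripts of Sgk1 (left) and Dclk1 (right) in each of 4 mianserin, 4 saline set II and 4 saline set I libraries (points), ordered by start position from the top and named by the last digits of their Ensembl identifiers, with RI for retained intron. In the 5 lowest Sgk1 rows the mianserin points reach farthest right, and in Dclk1 they lie above all saline points in the rows of ENSMUST00000198757 and ENSMUST00000199585 and, by a narrow margin, in that of ENSMUST00000070418.

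Nrg2, a ligand of ErbB receptors, was the single gene with a called rise in one transcript and a called fall in another against the 8 saline libraries, and 0 genes had this in both comparisons. It was named after its values were seen. ENSMUST00000115713 was 0.975, 1.23, 1.06 and 1.15 FPKM after mianserin and at most 0.00803 FPKM in saline (adjusted p = 1.91e-05, and 0.0133 against set II). ENSMUST00000115712 was 0.0518 ± 0.0962 FPKM after mianserin and 0.876 ± 0.197 FPKM after saline (adjusted p = 0.00640, and 0.0575 against set II). When all 32 NAc libraries set the spread, neither was called against set II, with adjusted p of 0.0689 and 0.185.

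Many called genes were short entries inside longer genes. Of the 49, 13 carry the annotation class TEC, used for transcribed regions that await experimental testing, and they were 31.4% of the risen and 14.3% of the fallen genes where the class is 5.75% of the genes tested. Of these 13, 11 rose and 2 fell. All 13 lie within another gene, 11 of them on its strand, and 12 overlap no exon of any gene around them. These positions were not determined for all 1772 TEC genes tested. The counts therefore do not show whether such positions are particular to the called ones. None of the host genes was called.

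Gm37728 (chromosome 6, 31145128 to 31147419), inside the noncoding gene Lncpint, was the TEC gene called in both comparisons. It read 5.63, 7.15, 6.63 and 6.89 FPKM after mianserin and 2.97, 3.62, 3.66 and 3.29 FPKM in saline set II, with 2.97, 3.46 and 3.76 as the lowest, median and highest saline values. The groups were apart by more than the saline range, and the difference was 0.77 (SE 0.07, limma, adjusted p = 0.000691), or 0.79 from set II (adjusted p = 0.0346). Its host differed by 0.10 (adjusted p = 0.624).

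A run of 4 called TEC genes lies within Mgll (chromosome 6, 88724412 to 88828360), which encodes the monoacylglycerol lipase that degrades an endocannabinoid. RP23-170C11.3 was 1.99, 2.62, 2.2 and 2.93 FPKM after mianserin and 0.978, 1.08, 1.22 and 1.01 FPKM in saline set II, a difference of 0.73 from the 8 saline libraries (SE 0.08, limma, adjusted p = 0.00269). RP23-170C11.4, RP23-82I13.5 and RP23-82I13.6 differed by 0.53, 0.58 and 0.54 (adjusted p = 0.0247, 0.0269 and 0.0207). All 4 had every mianserin library above every saline library. Mgll itself was 24.2 ± 1.39 FPKM (SD, n = 4) against 25.4 ± 4.30 (SD, n = 8), a difference of -0.05 (95% interval -0.30 to 0.19, adjusted p = 0.846). RP23-82I13.5 lies on the strand opposite to Mgll, and whether the estimates used strand is not given in the sources used here.

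Gm43486, on the strand opposite to its host Lrrc7, a postsynaptic scaffold protein, was 3.91, 3.93, 5.48 and 4.95 FPKM after mianserin and 1.62 to 2.44 FPKM in saline (difference 0.87, SE 0.10, limma, adjusted p = 0.00329), where Lrrc7 differed by -0.09. Gm37310 inside Slc1a3, the astrocyte glutamate transporter, was 2.90 ± 0.374 against 1.51 ± 0.254 FPKM (adjusted p = 0.0148), where Slc1a3 differed by 0.04. Gm42608 inside Dclk1 was 7.49, 6.15, 7.34 and 7.30 FPKM against 3.52 to 5.23 in saline (adjusted p = 0.0357). In each of these 3 the entry was above all saline libraries while its host was not called. Among the 49, the 2 TEC genes that fell were Gm42979 in Sfswap, a splicing regulator, at 1.34 ± 0.292 against 2.60 ± 0.295 FPKM (adjusted p = 0.0147), and Gm37859 in 5330417C22Rik. Sfswap itself differed by -0.35 (adjusted p = 0.0586).

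Gm26945 (chromosome 12, 109640341 to 109642351), a noncoding entry inside the imprinted noncoding gene Rian, was the gene that fell in both comparisons. It was 5.17, 4.45, 4.46 and 3.87 FPKM after mianserin and 8.11, 8.29, 9.16 and 7.73 FPKM in saline set II, and the 8 saline libraries ran from 6.76 through 8.03 to 9.16. All mianserin libraries were lower, with a difference of -0.70 (SE 0.08, limma, adjusted p = 0.00401), or -0.77 from set II (adjusted p = 0.0346). With libraries rescaled to the same 75th percentile, the call against set II was lost. Rian summed to 203 ± 3.79 FPKM (SD, n = 4) against 209 ± 4.20 (SD, n = 8), a difference of -0.04 (adjusted p = 0.707). In the other direction, the Rian transcript ENSMUST00000194138, which lies just beyond Gm26945 at 109643942 to 109645442, was 14.8, 13.7, 15.5 and 14.7 FPKM after mianserin and 8.78 to 10.5 FPKM in saline (difference 0.58, SE 0.07, adjusted p = 0.00865).

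**Figure D4:**
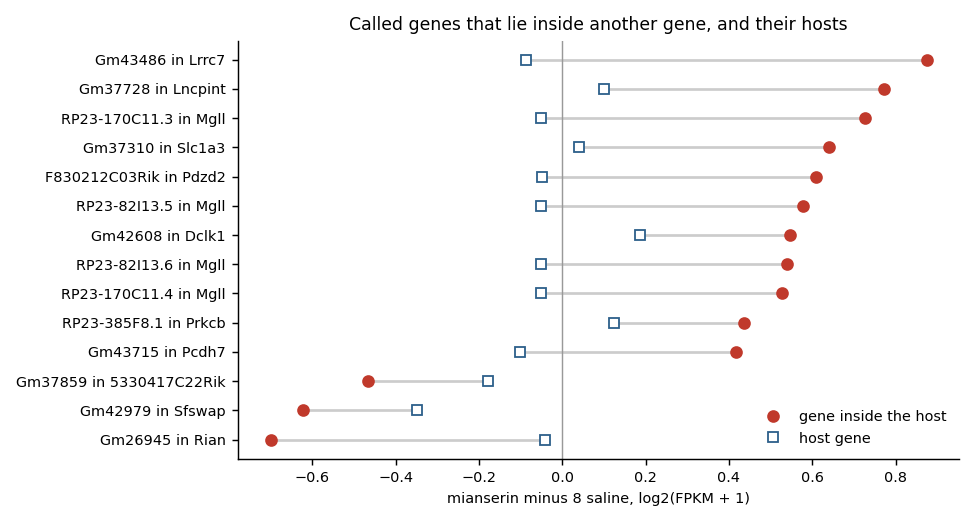
Difference between mianserin and the 8 saline libraries on the log2(FPKM + 1) scale (horizontal axis) for the called genes that lie inside another gene (red circles) and for their host genes (blue squares), one pair a row. The circles of the risen entries lie at 0.42 to 0.87 while the squares of all hosts lie between -0.35 and 0.19.

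The Notch targets, repressors and ID proteins known from glia and progenitors, held the gene with the largest fall among the 49 called. Hes5 was 2.12, 2.42, 2.29 and 3.95 FPKM after mianserin, 5.46, 6.21, 5.83 and 6.33 FPKM in saline set II and 6.56 to 9.74 FPKM in set I. The mianserin libraries were lowest, and set I was above set II. The difference was -1.13 from the 8 saline libraries (SE 0.16, limma, adjusted p = 0.0148) and -0.94 from set II (SE 0.14, adjusted p = 0.0931). No other of the 10 members was called. Hes1, a related repressor, differed from set II by 0.55 (adjusted p = 0.413) and Id3 by -0.37 (adjusted p = 0.394), of opposite sign. Astrocyte markers summed to 243 to 267 FPKM after mianserin, 233 to 253 in set II and 265 to 288 in set I. Other coding genes that fell were Pou3f4, a transcription factor of striatal development, at 4.53 ± 0.193 against 7.03 ± 0.788 FPKM (adjusted p = 0.0218), and Tob1, an antiproliferative protein that promotes removal of poly(A) tails, at 3.82 ± 0.208 against 5.88 ± 0.657 FPKM (adjusted p = 0.0225).

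The receptors and transporters that mianserin is known to bind showed no called change. Of 18 listed, 17 passed the filter on low values and 0 were called against either control, with a median of -0.01 against 8 saline libraries and 0.03 against saline set II, and 1, Adra1b, had an unadjusted p below 0.05 against set II. Htr2c, the most abundant of the serotonin receptors given here, was 17.9 ± 0.745 FPKM after mianserin and 19.0 ± 0.939 in saline set II (SD, n = 4 each), and Htr2a was 4.29 ± 0.492 and 4.35 ± 0.574. The differences were -0.08 (95% interval -0.23 to 0.06) for Htr2c and -0.01 (-0.23 to 0.20) for Htr2a. For the histamine receptor Hrh1 it was -0.05 (-0.32 to 0.22) and for the adrenergic receptor Adra2a 0.17 (-0.12 to 0.46).

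Lists with 0 called members in both comparisons were the cold-induced and heat shock genes (18 tested), circadian clock genes (17), nuclear long noncoding RNAs (10), unfolded protein and amino acid stress genes (11), cholesterol synthesis genes (17), neuropeptide precursors (12), mitochondrially encoded genes (13) and microtubule-associated genes (9). Their medians against saline set II ran from -0.05 to 0.09, and at an unadjusted p below 0.05 in that comparison no list had more than 2 members higher or 2 lower (limma). Neat1, the RNA scaffold of paraspeckles and a member of the nuclear list, differed as a gene by 0.10 from the 8 saline libraries (adjusted p = 0.548), but its transcript ENSMUST00000173672, which spans the whole gene, was called. It was 1.52, 1.46, 1.75 and 1.43 FPKM after mianserin and 0.837 to 0.976 FPKM in the 8 saline libraries, with no overlap (difference 0.42, SE 0.06, limma, adjusted p = 0.0295). From saline set II this transcript differed by 0.43 (adjusted p = 0.232). The clock output gene Dbp was 16.8 ± 1.67 FPKM after mianserin and 24.0 ± 3.59 over the 8 saline libraries (adjusted p = 0.138), with no overlap of the groups.

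The same genes were then read in the prefrontal cortex (PFCx), where 4 mianserin libraries were compared with the 4 PFCx saline set II libraries. None of these PFCx libraries entered the NAc comparisons, and nothing in the labels ties a NAc library and a PFCx library to one animal. There 55 of the 30841 genes (0.178%) were called, 30 higher (0.0973%) and 25 lower (0.0811%). Of the 35 genes that rose in the NAc, 31 had a difference above 0 in the PFCx, where 45.1% of all genes tested did, and 11 were called higher. Of the 14 that fell, 12 had a difference below 0, as did 54.9% of all genes, and 1, Hes5, was called lower (difference -0.91, adjusted p = 0.0433). None was called in the opposite direction. The median PFCx difference was 0.35 for the risen genes, -0.32 for the fallen and -0.02 for all genes, beside 0.51 and -0.53 in the NAc against its own saline set II.

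Sgk1 was 33.3 ± 3.65 FPKM in the PFCx after mianserin and 14.0 ± 0.697 in saline set II (SD, n = 4 each), a difference of 1.18 (SE 0.09, limma, adjusted p = 0.00801). Txnip was 11.5 ± 0.682 against 3.55 ± 0.781 FPKM, a difference of 1.47 (adjusted p = 0.00801), and Cyr61 was 1.79 ± 0.364 against 0.363 ± 0.111 FPKM (adjusted p = 0.00967). The genes called in both NAc comparisons were thus also called in the PFCx, except Gm26945, whose PFCx difference was -0.61 (adjusted p = 0.0587). Nfkbia differed there by 0.99 (adjusted p = 0.0439) and Gm37728 by 0.82 (adjusted p = 0.0168).

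The test of the difference between the tissues called 4 genes (0.0130%), 3 with the higher difference in the NAc (0.00973%) and 1 with the lower (0.00324%), and 1 of the 4 was among the 49. This was RP23-170C11.3 inside Mgll, with a NAc difference of 0.72 and a PFCx difference of -0.13, so that the tissues differed by 0.86 (adjusted p = 0.0379). These calls depended on the fit. At a mean FPKM of at least 1, with a mean-variance trend or with a replicate block, 0 genes were called, and without 1 library 0 to 31. For Sgk1 the NAc exceeded the PFCx by 0.44 (95% interval 0.17 to 0.71, unadjusted p = 0.00320, adjusted p = 0.306), and for Txnip by 0.16 (-0.22 to 0.53). Some list members below the threshold in the NAc were called in the PFCx, among them Ddit4 (1.25, adjusted p = 0.00823), Dusp1 (1.15, adjusted p = 0.00823) and Nr4a1 (0.81, adjusted p = 0.0333). The tests of the difference between the tissues gave -0.38, -0.70 and -0.37 for these 3 genes, with adjusted p of 0.498, 0.272 and 0.417.

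**Figure D5:**
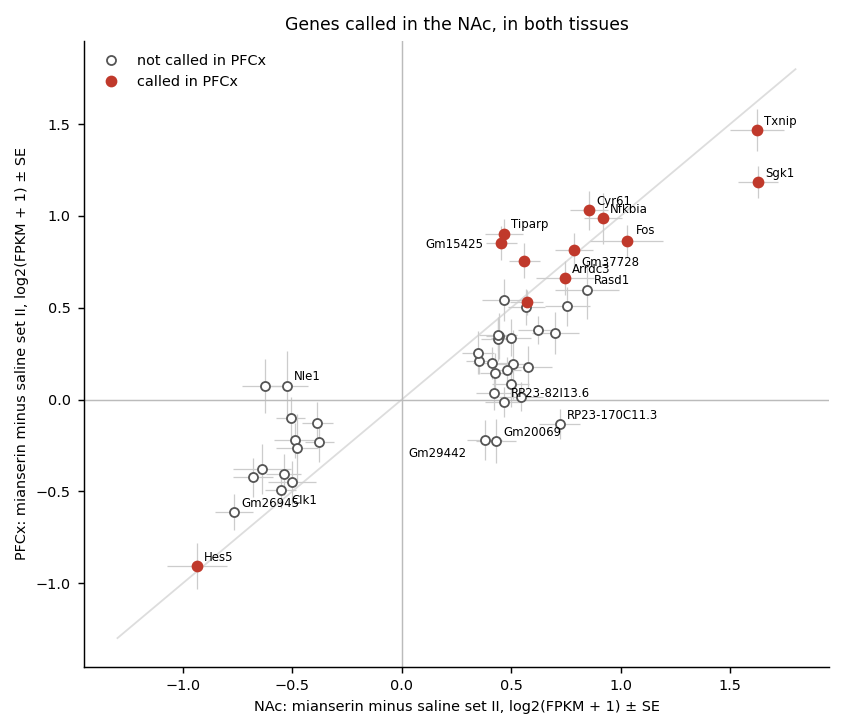
Difference between mianserin and saline set II on the log2(FPKM + 1) scale in the NAc (horizontal axis) and the PFCx (vertical axis) for the 49 genes called in the NAc against the 8 saline libraries, with SE as grey lines and equality as the diagonal. Red points, called in the PFCx, are 11 genes at the upper right and Hes5 at the lower left, and RP23-170C11.3 lies at 0.72 and -0.13.

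Within the NAc, mianserin was compared directly with venlafaxine, an inhibitor of serotonin and noradrenaline reuptake given at 16 mg/kg, and with ketamine, an NMDA receptor blocker given at 20 mg/kg, each in 4 libraries. These comparisons use the mianserin libraries described above. Against venlafaxine 6 genes were called (0.0195%), 5 higher (0.0162%) and 1 lower (0.00324%), and each was also among the 49 called against saline: Sgk1, Txnip, Fos, Cyr61 and Gm37728 were higher after mianserin and Gm26945 was lower. Sgk1 was 24.0 ± 2.01 FPKM after venlafaxine (SD, n = 4) and differed by 1.35 (SE 0.10, limma, adjusted p = 0.00508). Txnip was 4.45 ± 0.989 FPKM and Fos 1.98 ± 0.313 FPKM after venlafaxine, differences of 1.47 (adjusted p = 0.0121) and 1.21 (adjusted p = 0.0185). Venlafaxine itself differed from saline set II by 0.27, 0.15 and -0.18 in these 3 genes, with adjusted p of 0.928, 0.964 and 0.961.

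Against ketamine 273 genes were called (0.885%), 224 higher (0.726%) and 49 lower (0.159%) after mianserin. Sgk1 was 38.3 ± 1.27 FPKM after ketamine (SD, n = 4), between its levels after saline and after mianserin, and the difference between the drugs was 0.70 (SE 0.08, limma, adjusted p = 0.00449). Txnip, at 6.35 ± 0.187 FPKM after ketamine, differed by 1.02 (adjusted p = 0.000107) and Cyr61 by 0.71 (adjusted p = 0.00862). Fos was 6.46 ± 0.892 FPKM after ketamine and 5.91 ± 0.897 after mianserin, a difference of -0.11 with a 95% interval of -0.38 to 0.15 (adjusted p = 0.811). Fkbp5 was 8.44 ± 0.448 FPKM after ketamine and differed by -0.12 (-0.30 to 0.05). Sgk1, Txnip and Cyr61 were thus higher after mianserin than after ketamine, while no difference between the drugs was detected for Fos and Fkbp5.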

How the data were processed

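The authors depleted total RNA of ribosomal RNA, sequenced single-end Ion reads of over 100 bases, aligned them first with TopHat2 2.0.1 and then with Tmap, and ran Cufflinks 2.2.1 on the Ensembl annotation of GRCm38 (mm10). They deposited FPKM and coverage (a signal of reads per base, not scaled to depth) per transcript and library, with no read counts. Depth, 2.03 to 3.26 gigabases, was estimated by dividing coverage by FPKM and taking the median over long (2000 bases or more) and well expressed (FPKM of 5 or more) transcripts. It limits the precision of low FPKM, for which no counting interval can be given.

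FPKM was analysed per transcript and summed per gene, as log2(FPKM + 1), for features with a mean of at least 0.1 over the 12 libraries. Groups were compared with limma 3.58.1 in R 4.3.3 and with two-sided exact permutation tests (Python 3.11.15, numpy 2.4.6, pandas 2.3.3), and a gene was called at an adjusted p below 0.05. On simulated data with 200 genes changed by 1 on the log2 scale, limma recovered 184 with 2 false calls in the design with 8 saline libraries (30841 genes) and 179 with 13 false calls in that with saline set II. The simulated libraries carried no difference between the saline sets, while 12.6% of genes differed between them in the data. The planted change of 1 was also larger than the median difference of the risen genes, 0.51 from set II. These counts therefore do not give the recovery or the false calls in the data. Transcript types and positions came from GENCODE vM21 (99.0% of transcripts matched) and promoters from RefSeq. Named genes were those called in both comparisons in one direction outside the saline range, the binding sites of mianserin, the Dclk1 transcripts, up to 4 members of each list by p, and up to 4 genes by the tissue difference. Other named genes were chosen after their values were seen. The members and lists were chosen with earlier results of these data known.

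The replicate numbers were checked for pairing: deviations of mianserin and saline set II libraries with the same number correlated at 0.0603 to 0.272, not above 0.1 in every pair, so the fits carry no block. Alternatives were another pseudocount, other filters on low values, rescaling, other estimates of the spread, saline set I alone as control, all 32 NAc libraries in the fit, the replicate block and leaving out each library. The fit with the spread from 12 libraries was added after seeing the data. Haloperidol, risperidone and methamphetamine libraries served only to set the spread in the fit of 32 libraries, and reads and the microarray, PCR and peptide data were not analysed here.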

Additional observations from a re-analysis of the deposited data

Results flagged for a closer look

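Single libraries that stood apart within their group of 4, by the gap to the nearest other library relative to the range (Dixon's criterion), were found in 17 of 534 groups of named features. Chance alone marks about 1 in 20 groups. In saline set I these were Cartpt in replicate 4 at 14.9 FPKM, Csrnp1 in replicate 3 at 0.670 FPKM, with its transcript ENSMUST00000035101 also at 0.670, Htr3a in replicate 4 at 0.119 FPKM, Pou3f4 in replicate 2 at 5.61 FPKM, the Ctss transcript ENSMUST00000015667 in replicate 3 at 0.377 FPKM, the Lncpint transcript ENSMUST00000115107 in replicate 3 at 4.96 FPKM, and the Dclk1 transcripts ENSMUST00000054237 and ENSMUST00000070418 in replicate 4 at 7.93 and 12.8 FPKM. In saline set II they were Per1 in replicate 4 at 9.30 FPKM, the Mctp1 transcript ENSMUST00000109589 in replicate 1 at 1.88 FPKM and the Dclk1 transcript ENSMUST00000198412 in replicate 2 at 5.23 FPKM. In the mianserin libraries they were Klf15 in replicate 4 at 6.63 FPKM, Nle1 in replicate 2 at 3.45 FPKM, the Ttll7 transcript ENSMUST00000038090 in replicate 1 at 0.223 FPKM, the Dclk1 transcript ENSMUST00000054237 in replicate 4 at 1.11 FPKM and the Nrg2 transcript ENSMUST00000115712 in replicate 4 at 0.196 FPKM.

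In the main fit, the interaction test called 4 genes for a difference of the mianserin effect between the NAc and the PFCx (limma, adjusted p = 0.0379 for each). With a mean-variance trend or a replicate block it called 0 genes. The NAc effect minus the PFCx effect on the log2(FPKM + 1) scale was 1.32 for AC137871.1, 0.67 for AV026068, 0.86 for RP23-170C11.3 and -1.47 for Gm14119. The NAc and PFCx effects were -0.009 and -1.33 for AC137871.1 and 0.12 and -0.55 for AV026068. They were 0.72 and -0.13 for RP23-170C11.3 and -0.39 and 1.09 for Gm14119.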

How the results depend on the processing

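No called difference of a named gene or transcript changed direction in an alternative, while 83 of 7556 single values, none past the threshold in either fit, changed sign. Of the 7556, 6605 kept their side of the threshold, 173 gained and 778 lost it. All 6 genes and 3 transcripts called in both comparisons stayed called against the 8 saline libraries in every alternative run. Against saline set II, Sgk1 and Txnip were called in 15 of 17 alternatives, Nfkbia in 8 of 17, Cyr61 in 7 of 16, Gm37728 in 6 of 17 and Gm26945 in 5 of 17. Of the 8 fits without 1 library, Sgk1 and Txnip passed in 8, Nfkbia in 2 and the other 3 genes in 1 each. The cause of changed counts was not tested.

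Counts of called genes against the 8 saline libraries (49) were 21 with a pseudocount of 0.1, 74 without a filter, 4896 when only saline set I was the control and 483 with all 32 NAc libraries in the fit, and 19 to 51 when 1 library was left out. Against saline set II (8) they were 0 in an ordinary linear model (2399 genes at an unadjusted p below 0.05), 99 with 32 libraries and 20 with the spread from 12, and 2 to 7 without 1 library. Called transcripts against the 8 saline libraries (59) were 134 without a filter, 89 in an ordinary model, 1273 against set I alone and 364 with 32 libraries, and 33 to 56 without 1 library. Against set II (3) they were 16 with a pseudocount of 0.1, 30 without a filter, 10 at a mean FPKM of at least 1, 5 with a mean-variance trend, 131 with 32 libraries and 23 with the spread from 12, and 0 to 3 without 1 library. Rescaling to the 75th percentile left 2 higher and 0 lower there, where the split had been 2 and 1. The difference between the tissues (4) gave 2 without a filter, 0 at a mean FPKM of at least 1 (1606 at an unadjusted p below 0.05), 0 with a trend (2962) and 2 in an ordinary model, and 0 to 31 without 1 library. Against venlafaxine (6) the counts were 0 with a pseudocount of 0.1 (2077 at an unadjusted p below 0.05), 1 without a filter and 1 in an ordinary model, and 1 to 5 without 1 library. Against ketamine (273) they were 179 with a pseudocount of 0.1 and 128 in an ordinary model, and 169 to 274 without 1 library.

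In fits with a replicate block the counts were 17 genes and 24 transcripts against the 8 saline libraries, 0 genes (2705 at an unadjusted p below 0.05) and 0 transcripts (5386) against saline set II, 0 for the tissue difference (2972), 1 against venlafaxine and 177 against ketamine. Of the 4 mianserin libraries, 3 correlated best with the saline set II library of their own number, which is a hint from the data and not from the design.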
